A study of Mus musculus with 6 samples.

Results

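The genes described here are the translation initiation, elongation and termination factors measured in induced T (iT) cells of the mouse. Members were all rows whose symbol begins with Eif or Eef and a digit, plus the release factor genes Etf1 and Gspt1, leaving out Eif2s3x and Eif2s3y. A row also had to reach 1 TPM in at least 3 of the 6 libraries, where TPM is transcript abundance divided by gene length and scaled to a fixed total per library. The name rule matched 67 rows and 61 passed the filter, of 10476 rows that passed it in the whole table of 23420. The lowest value of any of the 61 in any library was 1.91 TPM. Of the 6 that did not pass, Eef1a2, Eif3j1 and Eif4e1b were listed at 0 in every library. Eef2k, the kinase that inhibits eEF2, lay between 0.277 and 1.27 TPM. The other 2, Eif2c3 and Eif2c4, are older symbols of the Argonaute genes Ago3 and Ago4. Eif2c1 and Eif2c2 passed the filter, but they are older symbols of Ago1 and Ago2, small-RNA binding proteins that are not translation factors. The other 59 include genes that act on or beside the factors, namely the kinases of eIF2 alpha, the 4E-binding proteins, Eif4a3 and Eef1e1, and these are described by what they do.

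Protein synthesis starts when the eIF4 proteins bind the mRNA cap and unwind the leader, and the small ribosomal subunit, carrying eIF1, eIF1A, eIF3 and the eIF2-bound initiator tRNA, scans for the start codon. Kinases that phosphorylate the alpha subunit of eIF2 slow this step by blocking its nucleotide exchange factor eIF2B, and the 4E-binding proteins slow it by holding the cap-binding protein eIF4E until the kinase mTORC1 releases it. Elongation then depends on eEF1A, which brings aminoacyl-tRNA to the ribosome, and on eEF2, which moves the ribosome along. Many elongation factor and ribosomal protein mRNAs begin with a pyrimidine tract (TOP mRNAs), through which mTORC1 controls their translation, and T cells raise protein synthesis strongly when activated.

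Polyadenylated RNA was sequenced from CD4SP and CD8SP iT cells, that is single-positive for CD4 or for CD8, sorted from the spleen of B-NDG mice, with 3 libraries of 1000 cells per population. B-NDG mice lack T, B and NK cells of their own, and the recipients had been irradiated. The iT cells of both populations descend from C57BL/6 embryonic stem cells (CD45.2) that carry a doxycycline-inducible Runx1-p2a-Hoxa9 cassette in Rosa26 (iR9 cells). The cassette was switched on with doxycycline during the induction of blood progenitors in vitro. Both populations share the donor line, the cassette, the host and the tissue, so the comparison asks only how the factors differ between CD4SP and CD8SP iT cells, with no natural T cells in these libraries. The labels give neither age nor treatment of the hosts, nor whether libraries with the same replicate number came from the same mouse, so p-values measure the spread between these libraries only.

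The labelled populations carried their markers. Summed TPM of Cd4 and Zbtb7b was 315.0 to 369.6 in CD4SP and 1.71 to 3.29 in CD8SP libraries, and that of Cd8a and Cd8b1 was 24.9 to 38.9 in CD4SP and 3236 to 3562 in CD8SP libraries. Of 5 B cell markers Ms4a1 and Pax5 were listed at 0, and the list summed to between 15.9 and 24.5 TPM in all libraries. Of 7 myeloid markers 6 had a row, with S100a8 and S100a9 at 0. These summed to 17.1 to 31.3 TPM in CD4SP and 3.64 to 9.09 in CD8SP libraries. The 3 NK markers, with Ncr1 at 0, summed to 9.88 to 12 TPM in CD4SP and 55.1 to 64.5 in CD8SP libraries. Whether these transcripts came from other cells or from the iT cells was not tested, nor was the part of any such cells in the values below. Replicates differed unevenly. Over all tested genes the median absolute difference in log2(TPM + 1) was 0.11 between CD8SP replicates 1 and 2, against 0.24 and 0.25 for the other CD8SP pairs and 0.23 to 0.37 for the CD4SP pairs. These 2 CD8SP libraries were counted as separate samples, as their labels give them, and were averaged into 1 as an alternative. Ribosomal protein transcripts took 24.1%, 28.8% and 24.5% of TPM in the CD4SP libraries and 32.6%, 32.2% and 36.0% in the CD8SP libraries. The populations did not overlap (p = 0.1 in an exact two-sided permutation test, the smallest that 3 against 3 libraries allow). Rows at 1 TPM or more numbered 10594, 10329 and 10649 in the CD4SP and 10149, 10123 and 9971 in the CD8SP libraries, also without overlap (exact permutation p = 0.1), and the part of this difference in the values below was not tested. TPM within a library share a fixed total, and the median log2 fold change (CD4SP over CD8SP, on log2(TPM + 1)) of all 10476 tested genes was 0.28 rather than 0. A member at 0 on the deposited scale therefore stood below the typical gene. Log2 fold changes below are on the deposited scale unless stated, and for many members also on a median-of-ratios scale. The latter divides each library by its typical ratio to the others and brings the median of all genes to 0.00. TPM keep no read counts, so the sequencing depth behind each value is unknown, and in bulk RNA fewer transcripts per cell and fewer cells with the transcript cannot be told apart.

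Few of the factors passed a test between the populations. On the deposited scale 0 of the 61 members passed an adjusted p under 0.05 with a difference over 2-fold (limma, Benjamini-Hochberg adjustment over all tested genes), against 9.73% of all tested genes. By adjusted p alone 2 members passed (3.28%), Eef1g and Eef1b2, both higher in CD8SP iT cells, against 20.8% of all tested genes, of which 17.6% were higher in CD4SP and 3.23% higher in CD8SP. At an unadjusted p under 0.05 there were 15 members (24.6%), 10 higher in CD4SP and 5 higher in CD8SP, against 37.1% of all tested genes (31.4% and 5.69% by direction). The 10 were Eif1ax, Eif2d, Eif2b4, Eif2ak4, Eif4a2, Eif4e3, Eif4enif1, Eif4ebp1, Eif4ebp3 and Eif5a2, and the 5 were Eef1b2, Eef1g, Eif5a, Eif3b and Eif2b3. The libraries of the populations did not overlap for 19 members, 11 of them higher in CD4SP and 8 higher in CD8SP, against 43.2% of all tested genes (36.6% and 6.61% by direction). The median log2 fold change of the members was 0.10 on the deposited scale, and 45 of the 61 lay below the median of all genes. A fold change above 0 was found for 34 of the 61 members, against 74.8% of all tested genes.

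Rescaling shifted the members as a whole. On the median-of-ratios scale 17 members passed by adjusted p alone (limma), all higher in CD8SP, against 15.9% of all tested genes (8.45% higher in CD4SP and 7.45% higher in CD8SP), and the median of the members was -0.20. The libraries of the populations did not overlap there for 33 members (54.1%), against 36.7% of all tested genes. Of these, 30 were higher in CD8SP (49.2%) and 3 higher in CD4SP (4.92%), against 17.7% and 19% of all tested genes. Where single genes are said below to overlap or not, this refers to the deposited scale. With over 2-fold only Eif2b3 passed on this scale, against 7.52% of all tested genes, and with quantile normalization again only Eif2b3 did, against 7.42%. By adjusted p alone 8 members passed with quantile normalization, again all higher in CD8SP, against 14.9% of all tested genes (6.88% higher in CD8SP). With ribosomal protein genes removed 6 did, also all higher in CD8SP, against 15.8% of all tested genes (4.38% higher in CD8SP). Without a mean-variance trend on the deposited scale the 2 members that passed were others, Eif2ak4 and Eif5a2, both higher in CD4SP, against 18.9% of all tested genes. The difference of 18 members changed sign between the deposited and the median-of-ratios scale, on which 16 of the 61 were above 0, against 50.1% of all tested genes. For 52 members the 95% interval of the log2 fold change on the deposited scale lay within -1 to 1, so a 2-fold change was outside it, and for the other 9 the interval reached past 2-fold. CD4SP replicate 2 was the lowest CD4SP library for 49 of the 61 members (80.3%), against 57.8% of all tested genes. Without it 14 members passed by adjusted p alone, 11 higher in CD4SP and 3 higher in CD8SP, against 32.9% of all tested genes. Also without it 1 member (Eif4e3) passed with over 2-fold, against 11.5% of all tested genes. The populations then did not overlap for 40 members (65.6%), against 63.8% of all tested genes. No member passed without CD8SP replicate 1 or without CD8SP replicate 2, where 10.2% and 10.6% of all tested genes passed.

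**Figure D1:**
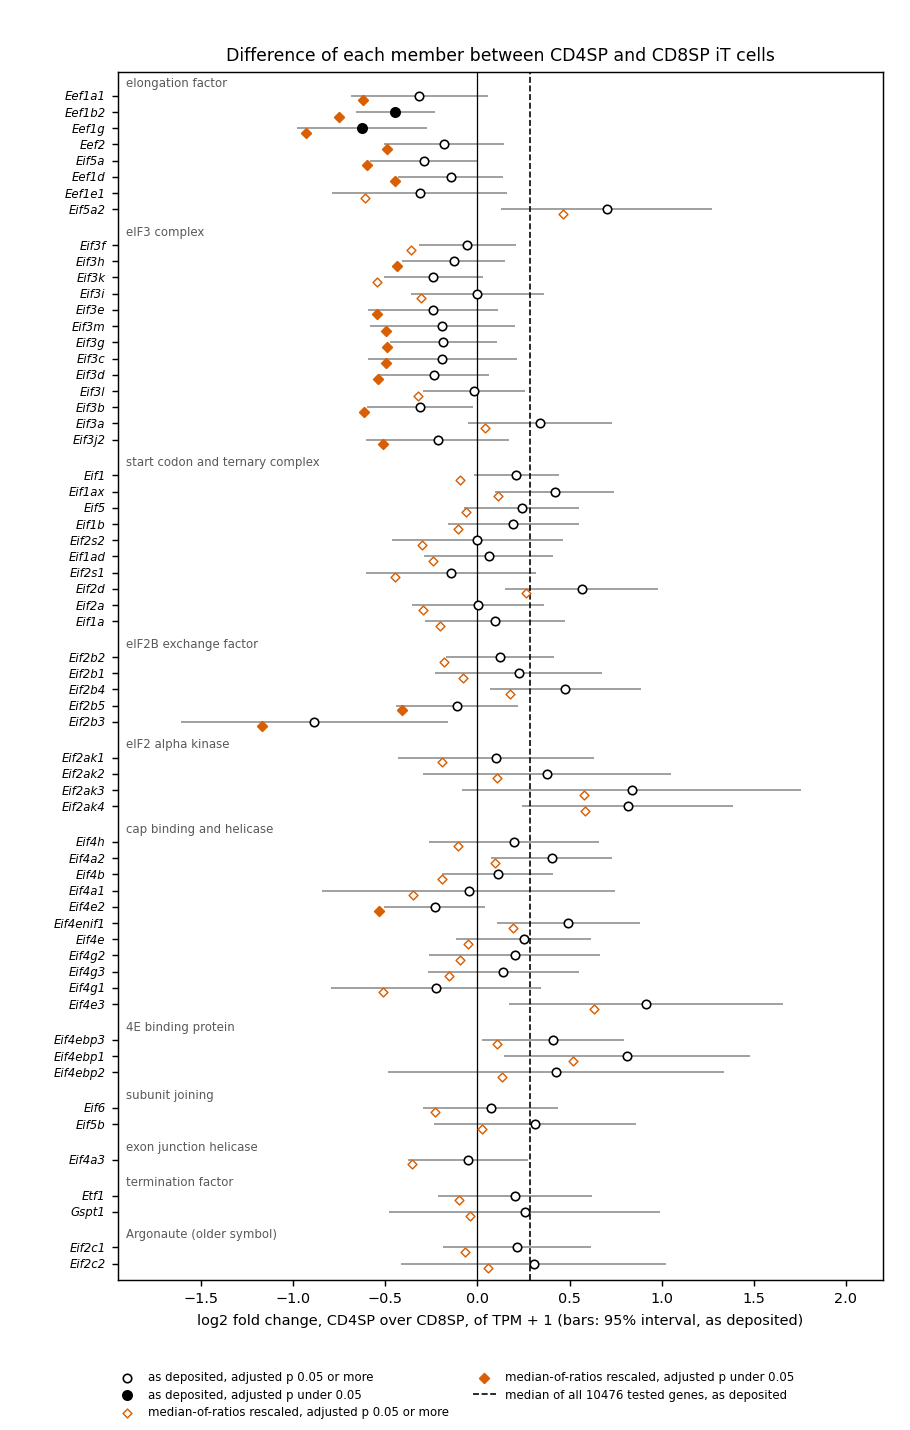
Log2 fold change (CD4SP over CD8SP, x axis) of each of the 61 members, grouped by role, with 3 libraries per population. Circles and 95% intervals are on the deposited TPM scale and diamonds on the median-of-ratios scale; filled symbols have an adjusted p under 0.05, the solid line is 0 and the dashed line the median of all tested genes, 0.28. Elongation factors and eIF3 subunits lie mostly left of 0, with Eif5a2 and Eif3a on the right, and the eIF2 alpha kinases and 4E-binding proteins lie right of 0 on the deposited scale.

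The elongation factors were the members most clearly higher in CD8SP iT cells. Of 8 genes, counting Eef1e1 by its name, 7 had a negative fold change on the deposited scale and after median-of-ratios rescaling, quantile normalization and removal of ribosomal protein genes, and in each fit that left out a library. Of all tested genes 74.8% were above 0 on the deposited scale and 50.1% on the median-of-ratios scale. By adjusted p (limma), 2 of the 8 passed on the deposited scale and 6 on the median-of-ratios scale, all higher in CD8SP, against 3.23% and 7.45% of all tested genes in that direction. Eef1g, the structural gamma subunit of the eEF1B exchange complex (chr19:8967041-8978479, mm10), was, in replicates 1 to 3, at 1103, 736 and 997 TPM in the CD4SP libraries and at 1461, 1520 and 1342 TPM in the CD8SP libraries. All CD8SP libraries were above all CD4SP libraries, and CD4SP replicate 2 was the lowest. The log2 fold change was -0.63 with a standard error of 0.15 (adjusted p = 0.0243 by limma), and -0.93 (adjusted p = 0.00188) on the median-of-ratios scale. Eef1b2, the catalytic subunit that recharges eEF1A with GTP (chr1:63176825-63180486), was at 1848, 1971 and 1792 TPM in the CD4SP libraries and at 2547, 2619 and 2477 TPM in the CD8SP libraries. Here replicates lay close together and the populations were well apart, with a log2 fold change of -0.45 and a standard error of 0.09 (adjusted p = 0.0128 by limma), and of -0.75 (adjusted p = 0.00866) on the median-of-ratios scale. Both fold changes stayed negative without each library in turn, but limma's adjusted p for Eef1g was 0.0770 to 0.0844 without CD8SP replicate 1 or 2, 0.0572 without CD4SP replicate 3 and 0.0546 without CD8SP replicate 3. For Eef1b2 it was 0.0742 without CD8SP replicate 1, 0.0769 without CD8SP replicate 2 and 0.0517 without CD4SP replicate 3, and without a mean-variance trend neither gene passed (0.0616 and 0.0630). With CD8SP replicates 1 and 2 averaged neither passed either (limma's adjusted p 0.0793 for Eef1g and 0.0751 for Eef1b2). Eef1g has 4 near-identical copies and Eef1b2 has 1 among the annotated transcripts, where a copy is a match of at least 95% over at least 200 bases, and how reads of such copies were shared out is not stated.

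Eef1a1 was the most abundant member and among the most abundant transcripts of all, ranking 1, 11 and 4 in the CD4SP and 2, 2 and 4 in the CD8SP libraries. It stood at 11516, 7456 and 10426 TPM in the CD4SP libraries and at 12276, 12731 and 11070 TPM in the CD8SP libraries. The ranges overlapped through CD4SP replicate 1, and CD4SP replicate 2 was lowest. Its log2 fold change was -0.32 (SE 0.16, adjusted p = 0.193 by limma), and -0.62 on the median-of-ratios scale (adjusted p = 0.0335). It shrank to -0.13 both with quantile normalization (adjusted p = 0.726 by limma) and without CD4SP replicate 2 (adjusted p = 0.289). Eef2 lay between 579 and 841 TPM with overlapping populations (log2 fold change -0.18, adjusted p = 0.376 by limma), and on the median-of-ratios scale it passed at -0.49 (adjusted p = 0.0160). Eef1d, the other exchange subunit of eEF1B, was far lower than Eef1b2, at 139 to 179 TPM, and its populations overlapped. Its log2 fold change was -0.15 (adjusted p = 0.423 by limma), and -0.45 (adjusted p = 0.0497) on the median-of-ratios scale. The ratio of Eef1b2 to Eef1d TPM was 10.4, 12.6 and 12.9 in CD4SP and 14.8, 14.6 and 14.6 in CD8SP libraries, without overlap (exact permutation p = 0.1). Eef1e1, an auxiliary protein of the multi-tRNA-synthetase complex despite its name, was at 26.6 to 45.9 TPM with overlap. Eif5a, which carries the modified amino acid hypusine and helps ribosomes through difficult stretches such as prolines, was at 711, 559 and 725 TPM in the CD4SP libraries and at 850, 827 and 753 TPM in the CD8SP libraries. The populations did not overlap, but the difference did not pass on the deposited scale (log2 fold change -0.29, SE 0.13, adjusted p = 0.134 by limma). It passed on the median-of-ratios scale (-0.60, adjusted p = 0.00467 by limma) and with ribosomal protein genes removed (-0.45, adjusted p = 0.0237). It did not pass with quantile normalization (-0.38, adjusted p = 0.0794 by limma) or without CD4SP replicate 2 (-0.17, adjusted p = 0.162).

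Eif5a2, the second gene for eIF5A, was the exception among the elongation factors. It was at 4.93, 3.54 and 5.54 TPM in the CD4SP libraries and at 2.68, 2.67 and 2.02 TPM in the CD8SP libraries. The populations did not overlap, with a log2 fold change of 0.70 (SE 0.25, adjusted p = 0.0793 by limma) that remained positive, at 0.46 (adjusted p = 0.187), on the median-of-ratios scale. It passed without a mean-variance trend (adjusted p = 0.0440 by limma) and without CD4SP replicate 2 (0.85, adjusted p = 0.0289). The ratio of Eif5a to Eif5a2 TPM, in which library scaling cancels, was 144, 158 and 131 in CD4SP and 317, 310 and 372 in CD8SP libraries. The mean log2 ratio, with 1 added to each TPM, was 6.88 ± 0.08 in CD4SP and 7.88 ± 0.08 in CD8SP (SD, n = 3 each), the highest separation relative to spread of the 9 paralogue ratios computed. In an exact permutation test (two-sided) this gave p = 0.1, the smallest possible, and 0.3 after Benjamini-Hochberg adjustment over the 9 ratios, so no ratio could pass in this design.

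The starts of several of these genes are shown because the pyrimidine tract of a TOP mRNA lies there. RefSeq windows on GRCm38.p6, the assembly of mm10, are given 5′ to 3′ on the transcribed strand. Each window is 30 bases around the longest run of C or T within the 50 bases after the annotated start, with that run in capitals. The windows of Eef1a1 and Eif3f include 8 bases before the start and that of Eif2ak3 includes 3. The windows of Eef1a1 (chr9:78481703-78481732, minus strand), Eef1b2 (chr1:63176851-63176880, plus), Eef2 (chr10:81176637-81176666, plus), Eif3f (chr7:108934407-108934436, plus), Eif4b (chr15:102073775-102073804, plus), Eif2ak3 (chr6:70844512-70844541, plus), Eif2ak4 (chr2:118388637-118388666, plus) and Eif5a2 (chr3:28781297-28781326, plus) read as follows.
Eef1a1: ccgccctcTTCCCgagggtgggggagaacg
Eef1b2: tgcgtccgagcgCTTTCgttcaactccggc
Eef2: gtcagcggTCTCTTCCgccgcagccgccgc
Eif3f: taggctctCTCTCTTTCTCggcaagatggc
Eif4b: ccgcgccaCCCCCTCgcgctgctttacgaa
Eif2ak3: gcacggaaCCCTCgctcaatgggcgatgtc
Eif2ak4: gggctggagCTCCCCTacccaccccagaat
Eif5a2: cgggtgtgggaagcgtggcggCCCCgcccc
The first 5 are textbook TOP mRNAs, and the last 3 are the members with an entry that had the highest log2 fold changes, so chosen after their values were seen. Runs counted after the start were 11 bases in Eif3f, 8 in Eef2, 7 in Eif4b and Eif2ak4, 5 in Eef1a1, Eef1b2 and Eif2ak3 and 4 in Eif5a2. The lengths in the 2 sets overlapped on this count. In Eef1a1 and Eif3f the run continues into C or T bases before the annotated start, which were not counted. A run of at least 7 bases, searched on the transcribed strand only and at the first listed start of each gene, was present in 15 of the 46 members with an entry (32.6%). It was present in 27.4% of all 27025 genes with a RefSeq start entry. The median longest run was 5.5 bases in members and 5 in all genes. Such a run is a match of letters near an annotated start, and no transcript starts were measured here. In the windows shown, the run began at the annotated start itself in Eef1a1 and Eif3f. It began 32 bases after the start in Eef1b2, 14 in Eef2, 10 in Eif4b, 5 in Eif2ak3, 29 in Eif2ak4 and 41 in Eif5a2. These later runs do not stand at the first annotated base, where the tract of a TOP mRNA would begin. Of the 9 textbook TOP mRNAs among the members, which also include Eef1d, Eef1g, Eif3e and Eif3h, 2 passed by adjusted p on the deposited scale and 7 on the median-of-ratios scale (limma), each higher in CD8SP, against 3.23% and 7.45% of all tested genes. This list overlaps the elongation factor and eIF3 groups and is not a separate line of evidence.

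The eIF3 complex, the scaffold that joins the small ribosomal subunit to mRNA and the other factors, leaned the same way with smaller differences. On the deposited scale 12 of its 13 measured genes had a negative fold change and 0 passed (median -0.19), and at an unadjusted p under 0.05 only Eif3b did. Of all tested genes 74.8% were positive, and 3.23% (5.69% unadjusted) passed as higher in CD8SP. Without CD4SP replicate 2 the eIF3 median was -0.04 and 9 of the 13 were negative. In that fit 1 eIF3 gene passed in each direction (limma), against 28.7% of all tested genes higher in CD4SP and 4.27% higher in CD8SP. On the median-of-ratios scale 8 passed by adjusted p (limma), all higher in CD8SP, with a median of -0.50, against 7.45% of all tested genes in that direction. With quantile normalization 3 passed as higher in CD8SP, against 6.88%, and 11 of the 13 were negative. Levels spanned from 22.2 TPM for Eif3j2 to 1373 TPM for Eif3f, the highest subunit. Eif3f was at 1292, 1166 and 1187 TPM in the CD4SP libraries and at 1325, 1373 and 1103 TPM in the CD8SP libraries, so the populations overlapped at both ends. Its log2 fold change of -0.06 (adjusted p = 0.754 by limma) was -0.36 on the median-of-ratios scale (adjusted p = 0.0622) and turned to 0.03 with quantile normalization. Eif3b, a core subunit with an RNA-binding domain, was at 107, 93.0 and 106 TPM in the CD4SP libraries and at 125, 139 and 117 TPM in the CD8SP libraries. All CD8SP libraries were higher, and its log2 fold change was -0.31 (SE 0.13, adjusted p = 0.110 by limma) on the deposited scale and -0.62 (adjusted p = 0.00384) on the median-of-ratios scale. Eif3d, which can bind the cap of some mRNAs, varied least among CD8SP libraries, at 201, 203 and 200 TPM, and lay at 192, 145 and 178 TPM in CD4SP libraries. Its log2 fold change was -0.24 (adjusted p = 0.224 by limma), and -0.54 (adjusted p = 0.00794) on the median-of-ratios scale.

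Eif3a, the largest subunit, was the only eIF3 gene with a positive fold change on the deposited scale. It was at 73.9, 52.5 and 76.9 TPM in the CD4SP libraries and at 55.8, 53.0 and 49.1 TPM in the CD8SP libraries, and CD4SP replicate 2 fell among the CD8SP values. Its log2 fold change was 0.34 (SE 0.17, adjusted p = 0.183 by limma) and 0.04 on the median-of-ratios scale. Without CD4SP replicate 2 it was 0.51 (adjusted p = 0.0181 by limma), and in that fit 4 of the 13 eIF3 genes were positive. Eif3j2 was at 22.2 to 33.2 TPM while its close copy Eif3j1, 99.4% identical over 2379 bases, was listed at 0 throughout, so the value of the pair may stand under 1 name and their ratio was not computed.

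Factors of start codon selection and of the eIF2 ternary complex lay nearer to the typical gene. Of 10 genes, 8 were positive on the deposited scale but only 2, Eif1ax and Eif2d, on the median-of-ratios scale, against 74.8% and 50.1% of all tested genes. By adjusted p 0 of the 10 passed on either scale (limma), against 20.8% and 15.9% of all tested genes. At an unadjusted p under 0.05 there were 2 on the deposited scale, against 37.1%. Eif1, which keeps scanning ribosomes from starting at wrong codons, was the most abundant, at 799, 726 and 769 TPM in the CD4SP libraries and at 660, 701 and 622 TPM in the CD8SP libraries. The populations did not overlap, and the log2 fold change of 0.21 (SE 0.10, adjusted p = 0.166 by limma) turned to -0.10 on the median-of-ratios scale. Eif1ax, a gene for eIF1A on the X chromosome, was at 145, 159 and 192 TPM in the CD4SP libraries and at 123, 134 and 111 TPM in the CD8SP libraries. These did not overlap either (log2 fold change 0.42, SE 0.14, adjusted p = 0.0689 by limma, and 0.11 on the median-of-ratios scale). Its autosomal paralogue Eif1a was lower, at 33.0 to 45.8 TPM, and overlapped. Eif2d, which can deliver initiator tRNA without GTP and releases spent ribosomes, was at 88.0, 56.1 and 80.5 TPM in the CD4SP libraries and at 49.9, 52.2 and 46.2 TPM in the CD8SP libraries. It did not overlap, with a log2 fold change of 0.57 (SE 0.18, adjusted p = 0.0586 by limma), and passed without CD4SP replicate 2 (0.76, adjusted p = 0.00619). On the median-of-ratios scale it was 0.26 (adjusted p = 0.203 by limma). The eIF2 subunit genes Eif2s1 and Eif2s2 lay at 45.1 to 79.4 and 47.5 to 82.7 TPM, in both cases lowest in CD4SP replicate 2, and their populations overlapped.

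The exchange factor eIF2B has 5 subunit genes, of which 3 were positive and 2 negative on the deposited scale, against 74.8% positive of all tested genes. By adjusted p 0 of the 5 passed (limma, 2 at an unadjusted p under 0.05), against 20.8% (37.1% unadjusted) of all tested genes. On the median-of-ratios scale 4 were negative and 2 passed as higher in CD8SP (limma), against 7.45% of all tested genes. Eif2b3, the gamma subunit of its catalytic core, had the lowest log2 fold change of the 61 members, at -0.89 (SE 0.32, adjusted p = 0.0803 by limma). It was at 8.03, 5.45 and 14.9 TPM in the CD4SP libraries and at 16.6, 15.1 and 19.6 TPM in the CD8SP libraries. CD4SP replicate 3 almost reached the lowest CD8SP library, and without it Eif2b3 passed with over 2-fold (-1.24, adjusted p = 0.0203 by limma), as it did on the median-of-ratios scale (-1.17, adjusted p = 0.0312) and with quantile normalization. Eif2b4, the delta subunit of the regulatory core, went the other way, with 63.2, 58.7 and 42.6 TPM in the CD4SP libraries and at 40.9, 40.7 and 34.4 TPM in the CD8SP libraries. Its populations were separated by a narrow gap (log2 fold change 0.48, SE 0.18, adjusted p = 0.0915 by limma, and 0.18 on the median-of-ratios scale), and it passed without CD4SP replicate 3 (0.65, adjusted p = 0.0398). Eif2b2, the most abundant subunit at 85.1 to 107 TPM, Eif2b1 and Eif2b5 overlapped. Eif2b5 had a log2 fold change of -0.11 (adjusted p = 0.611 by limma) on the deposited scale. It passed on the median-of-ratios scale (-0.41, adjusted p = 0.0372 by limma) and with quantile normalization (-0.40, adjusted p = 0.0476). In TPM, which is corrected for gene length, Eif2b3 was the lowest of the 5 in all 6 libraries.

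All 4 kinases of eIF2 alpha had a positive fold change on the deposited scale, as did 74.8% of all tested genes. By adjusted p 0 of the 4 passed (limma), and 1 did at an unadjusted p under 0.05. The shares of all tested genes higher in CD4SP were 17.6% and 31.4%. Eif2ak4 (GCN2), which senses uncharged tRNA, was at 5.75, 4.13 and 3.50 TPM in the CD4SP libraries and at 2.18, 1.91 and 2.09 TPM in the CD8SP libraries. The populations did not overlap and the CD8SP libraries lay close together (log2 fold change 0.82, SE 0.25, adjusted p = 0.0514 by limma). The value was 0.59 (adjusted p = 0.142) on the median-of-ratios scale, and the gene passed without CD4SP replicate 2 (0.85, adjusted p = 0.0454) and without a mean-variance trend (adjusted p = 0.0260). Eif2ak3 (PERK), which senses unfolded protein in the endoplasmic reticulum, was at 13.5, 4.60 and 7.23 TPM in the CD4SP libraries and at 4.24, 5.93 and 2.24 TPM in the CD8SP libraries. Its highest value was CD4SP replicate 1, the populations overlapped, and the standard error of 0.40 was the highest of any member. The log2 fold change of Eif2ak3 was 0.84 (adjusted p = 0.169 by limma), and 0.58 (adjusted p = 0.336) on the median-of-ratios scale. Eif2ak2 (PKR), which senses double-stranded RNA, was at 5.51 to 13.3 TPM with overlap. Eif2ak1 (HRI), the heme-sensing kinase, was the most abundant of the 4, at 23.7, 18.0 and 32.1 TPM in the CD4SP libraries and at 21.0, 19.4 and 27.0 TPM in the CD8SP libraries. Its values overlapped, and its log2 fold change of 0.10 turned to -0.19 on the median-of-ratios scale.

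Among the 11 cap-binding and helicase genes of the eIF4 group, 8 were positive on the deposited scale and 3 on the median-of-ratios scale. Of all tested genes 74.8% and 50.1% were. On the deposited scale 0 of the 11 passed by adjusted p (limma, 3 at an unadjusted p under 0.05), against 20.8% (37.1% unadjusted) of all tested genes. Eif4a2, a helicase paralogue, was at 314, 222 and 286 TPM in the CD4SP libraries and at 196, 215 and 205 TPM in the CD8SP libraries. CD4SP replicate 2 lay just above the highest CD8SP library (log2 fold change 0.40, SE 0.14, adjusted p = 0.0795 by limma), and without it the adjusted p was 0.00939. On the median-of-ratios scale the value was 0.10 (adjusted p = 0.585 by limma). Eif4a1, the main eIF4A helicase gene of proliferating cells, varied widely within both populations, at 84.1, 91.2 and 127 TPM in the CD4SP libraries and at 118, 56.4 and 162 TPM in the CD8SP libraries. No direction could be given, since leaving out single libraries moved its log2 fold change from -0.47 to 0.28. Eif4h, a helicase cofactor, was the most abundant gene of the group, at 232 to 397 TPM with overlap, and Eif4b, the other cofactor, was at 135 to 176 TPM with overlap.

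The cap-binding paralogues differed in level, and 0 of them passed by adjusted p on the deposited scale (limma), against 20.8% of all tested genes. Eif4e, the cap-binding protein of eIF4F, was at 54.6, 43.6 and 54.7 TPM in the CD4SP libraries and at 43.4, 47.7 and 36.9 TPM in the CD8SP libraries, and Eif4e2 (4EHP), which binds caps and represses, was at 61.1, 67.3 and 68.3 TPM in the CD4SP libraries and at 79.5, 77.3 and 74.6 TPM in the CD8SP libraries. Eif4e overlapped, and its log2 fold change of 0.25 (adjusted p = 0.287 by limma) turned to -0.05 on the median-of-ratios scale. Eif4e2 was higher in all CD8SP libraries. Its log2 fold change was -0.23 (adjusted p = 0.198 by limma) on the deposited scale and -0.53 (adjusted p = 0.0226) on the median-of-ratios scale. The Eif4e to Eif4e2 ratio was 0.894, 0.647 and 0.801 in CD4SP and 0.546, 0.617 and 0.495 in CD8SP libraries. It was higher in every CD4SP library (mean log2 ratio of TPM + 1 of -0.36 ± 0.23 against -0.85 ± 0.16, SD, n = 3 each, exact permutation p = 0.1, adjusted p = 0.3). Eif4e3, a further cap-binding paralogue, had the highest log2 fold change of all members, 0.92 (SE 0.33, adjusted p = 0.0791 by limma), from 22.3, 9.17 and 19.0 TPM in the CD4SP libraries and at 9.14, 8.94 and 6 TPM in the CD8SP libraries. CD4SP replicate 2 was at the level of the CD8SP libraries, and without it the value was 1.28 (adjusted p = 0.00891), against 0.63 (adjusted p = 0.163) on the median-of-ratios scale. Eif4enif1 (4E-T), which carries eIF4E into the nucleus and to silenced mRNAs, was at 84.5, 65.8 and 87.2 TPM in the CD4SP libraries and at 63.9, 57.4 and 46.8 TPM in the CD8SP libraries. Its populations did not overlap, by a narrow margin (log2 fold change 0.49, SE 0.17, adjusted p = 0.0720 by limma). The value was 0.19 (adjusted p = 0.325 by limma) on the median-of-ratios scale and 0.62 (adjusted p = 0.0248) without CD4SP replicate 2.

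The eIF4G scaffolds lay low, with Eif4g1 at 9.10 to 18.6 TPM, Eif4g3 at 18.6 to 26 TPM and Eif4g2 (DAP5), which lacks the eIF4E-binding region, at 25.9 to 43.8 TPM. All of them overlapped between populations. The ratios of Eif4g1 to Eif4g2 and to Eif4g3 had lower means in CD4SP, with a mean log2 ratio of -1.42 ± 0.22 against -0.99 ± 0.30 and of -0.82 ± 0.20 against -0.45 ± 0.18 (SD, n = 3 each). Both ratios overlapped between populations (exact permutation p = 0.2 for each).

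**Figure D2:**
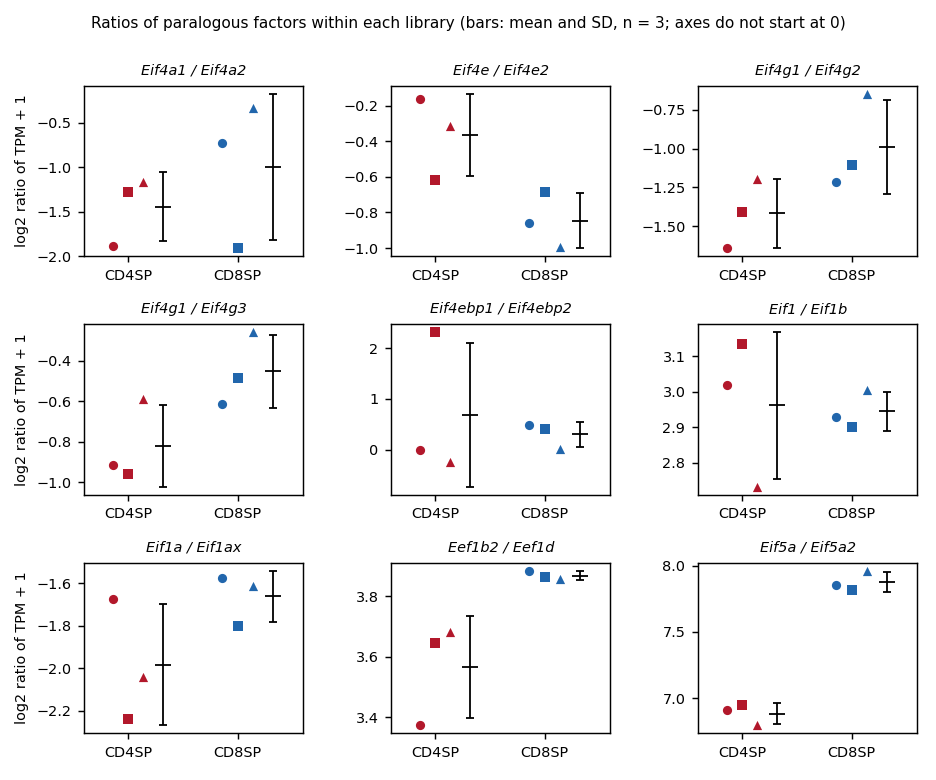
Log2 ratio of TPM + 1 of paralogous factors within each library (y axis) for 9 pairs, CD4SP in red and CD8SP in blue. Circles, squares and triangles are replicates 1, 2 and 3, and bars give the mean and SD (n = 3). Only Eif5a / Eif5a2, Eef1b2 / Eef1d and Eif4e / Eif4e2 show no overlap between populations.

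All 3 genes for 4E-binding proteins had a positive fold change on the deposited, median-of-ratios and quantile scales and in each fit that left out a library. Of all tested genes 74.8%, 50.1% and 48.2% were positive on these 3 scales. On the deposited scale 0 of the 3 passed by adjusted p (limma), and 2 did at an unadjusted p under 0.05. The shares of all tested genes higher in CD4SP were 17.6% and 31.4%. Eif4ebp1 was at 39.7, 63.0 and 30.1 TPM in the CD4SP libraries and at 27.4, 28.2 and 17.0 TPM in the CD8SP libraries. The populations did not overlap, and the log2 fold change was 0.81 (SE 0.29, adjusted p = 0.0815 by limma), or 0.52 (adjusted p = 0.327) on the median-of-ratios scale. Without CD4SP replicate 2 it fell to 0.53 (adjusted p = 0.142 by limma). Eif4ebp3 was at 65.5, 69.2 and 51.4 TPM in the CD4SP libraries and at 39.3, 48.9 and 51.1 TPM in the CD8SP libraries, separated by a very narrow gap (0.41, adjusted p = 0.118 by limma, and 0.11 on the median-of-ratios scale). Eif4ebp2 was at 40.0, 11.8 and 36.1 TPM in the CD4SP libraries and at 19.3, 21.1 and 16.9 TPM in the CD8SP libraries. CD4SP replicate 2 held the lowest Eif4ebp2 and the highest Eif4ebp1 of all libraries, so their ratio was 5.33 in that library and between 0.835 and 1.42 in the other 5. Without that library Eif4ebp2 had a log2 fold change of 0.96 (adjusted p = 0.00656 by limma), against 0.43 with it and 0.13 on the median-of-ratios scale. The sum of the 3 genes was 145, 144 and 118 TPM in the CD4SP libraries and at 86.0, 98.2 and 85.0 TPM in the CD8SP libraries. On the deposited scale every CD4SP sum exceeded every CD8SP sum (135.6 ± 15.6 against 89.7 ± 7.34, SD, n = 3 each, exact permutation p = 0.1). Of single tested genes 36.6% were likewise higher in all CD4SP libraries. Such a sum changes with the scaling of each library, and its separation on the median-of-ratios scale is not given here.

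The remaining members overlapped between populations and 0 passed (limma, also 0 at an unadjusted p under 0.05), against 20.8% (37.1% unadjusted) of all tested genes. Eif6, which keeps the large ribosomal subunit from joining too early, was at 105 to 144 TPM, and Eif5b, the GTPase of subunit joining, at 10.7 to 22.3 TPM. The release factor Etf1 was at 83.0, 56.2 and 88.9 TPM in the CD4SP libraries and at 62.8, 68.3 and 63.0 TPM in the CD8SP libraries, and its partner GTPase Gspt1 at 34.6, 14.8 and 36.8 and at 20.03, 26.4 and 20.7 TPM. In both genes CD4SP replicate 2 was the lowest library and the other CD4SP libraries were the highest. Their log2 fold changes of 0.20 and 0.26 on the deposited scale turned to -0.10 and -0.04 on the median-of-ratios scale. Without CD4SP replicate 2 both passed on the deposited scale (log2 fold changes 0.40 and 0.66, adjusted p = 0.0306 by limma and 0.0243). Eif4a3, the helicase of the exon junction complex, was at 224 to 305 TPM. The Argonaute genes listed as Eif2c1 and Eif2c2 were at 11 to 15.1 and 2.42 to 6.38 TPM.

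**Figure D3:**
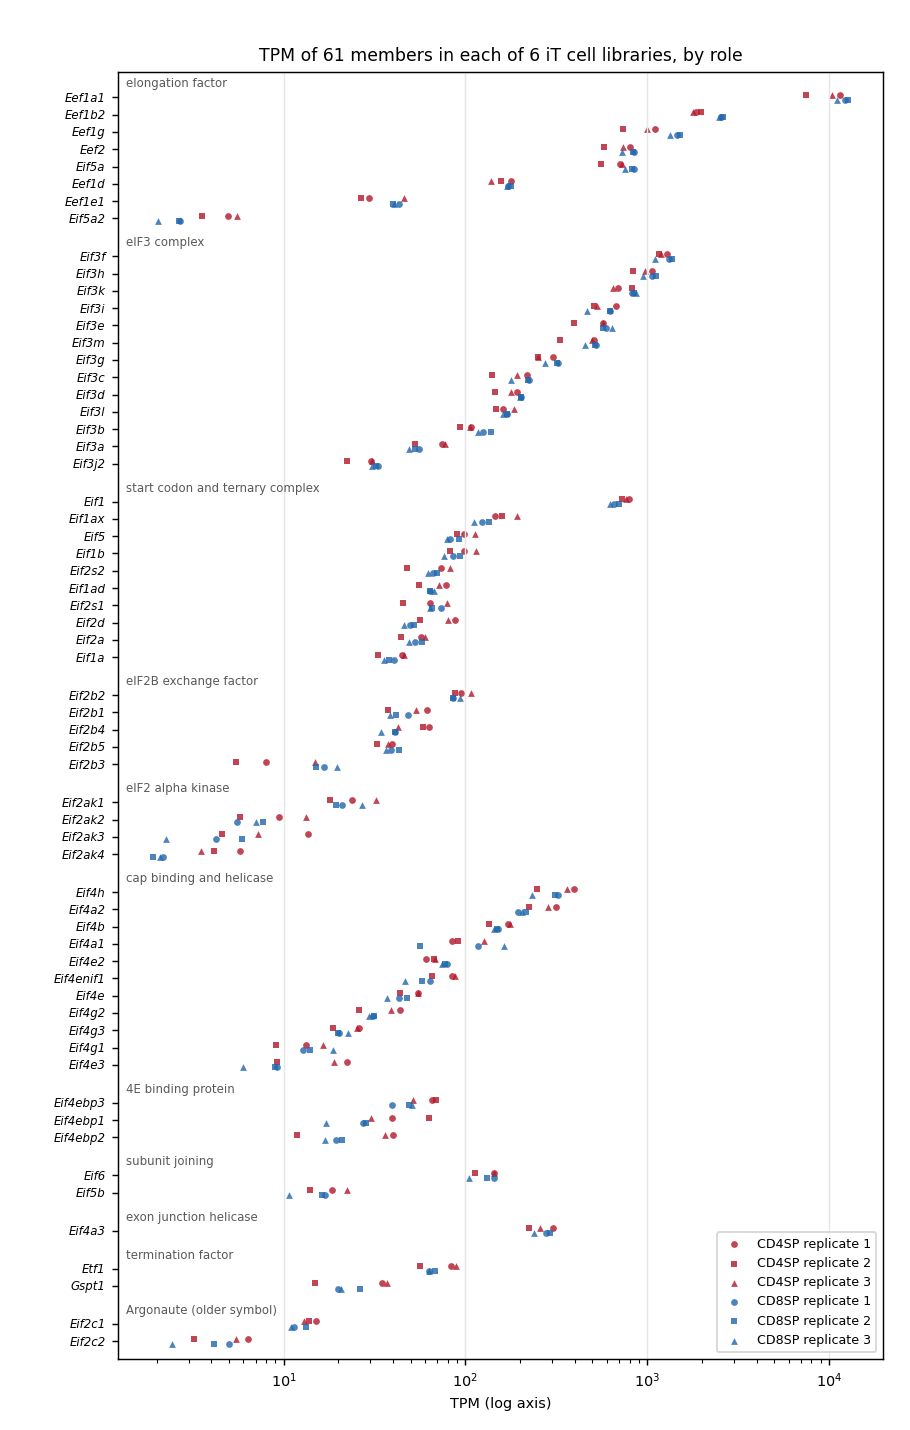
TPM (log axis) of each of the 61 members in the 6 libraries, grouped by role and ordered by mean within each role, CD4SP in red and CD8SP in blue, with circles, squares and triangles for replicates 1, 2 and 3. Levels run from about 2 TPM for Eif2ak4 and Eif5a2 to 12731 TPM for Eef1a1, and the square of CD4SP replicate 2 is often the lowest red symbol.

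Summed over the members, the factors took 2.60%, 1.96% and 2.42% of TPM in CD4SP and 2.76%, 2.83% and 2.51% in CD8SP libraries. The populations overlapped, and means were 2.33% ± 0.333 and 2.70% ± 0.165 (SD, n = 3 each, exact permutation p = 0.2). Eef1a1 alone made up 41.9% ± 3.27 and 44.6% ± 0.481 of these sums. As a share of TPM outside ribosomal protein genes, the members took 3.43%, 2.75% and 3.21% in CD4SP and 4.09%, 4.17% and 3.92% in CD8SP libraries, which did not overlap (exact permutation p = 0.1). The elongation factors summed to 16199, 11488 and 14870 TPM in the CD4SP libraries and at 18193, 18753 and 16580 TPM in the CD8SP libraries, again without overlap (p = 0.1, exact permutation test). The eIF3 genes summed to 4926 to 5883 TPM and 5496 to 6194 TPM and overlapped. The 81 ribosomal protein genes tested had a median log2 fold change of -0.38. Of them 27 passed as higher in CD8SP and 0 as higher in CD4SP (limma, adjusted p alone), against 3.23% and 17.6% of all tested genes. The ribosomal protein genes thus moved in the same direction as the elongation factors, and whether the 2 share a source was not tested.

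**Figure D4:**
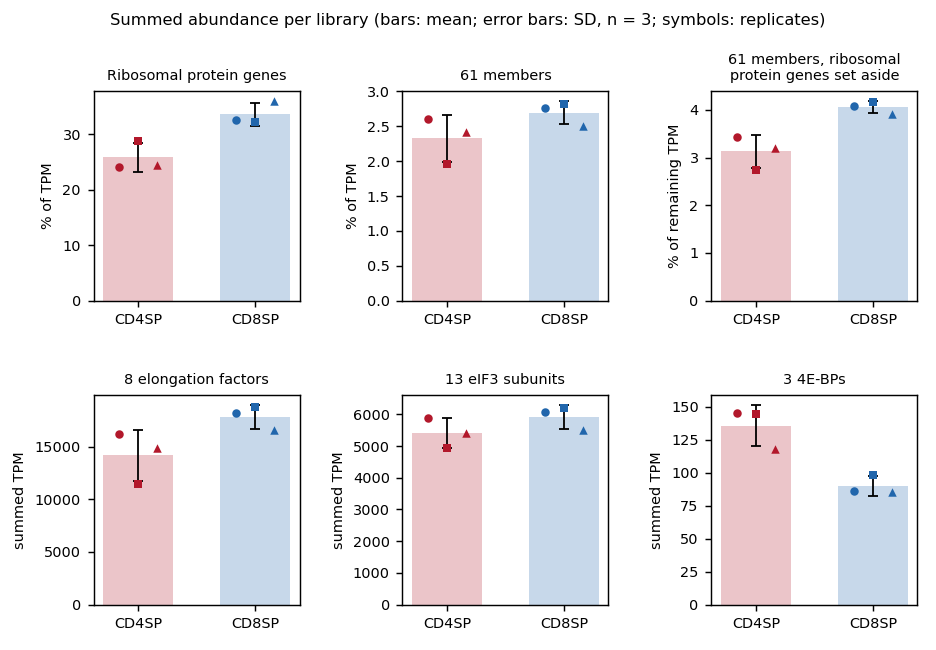
Share of TPM or summed TPM per library (y axes start at 0), CD4SP in red and CD8SP in blue, for ribosomal protein genes, the 61 members, the members outside ribosomal protein genes, elongation factors, eIF3 genes and 4E-binding protein genes. Bars are means, error bars the SD (n = 3) and symbols the replicates. On the deposited scale shown, ribosomal protein genes and elongation factors are higher in every CD8SP library, and the sum of 4E-binding protein genes is higher in every CD4SP library.

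Genes that work beside the factors were tested in the same fit. Of 101 tested genes outside the members, from lists of cap and poly(A) partners, the mTOR pathway, the integrated stress response, eIF5A and eEF2 modification, termination and ribosome rescue, mitochondrial translation, aminoacyl-tRNA synthetases and other TOP mRNAs, 4 passed with over 2-fold (limma), all higher in CD4SP. For 1 of them, Atf3, that direction was favoured by the filter, which it passed through its CD4SP libraries alone. The background was 7.92% of all tested genes higher in CD4SP with over 2-fold, and the median log2 fold change of the 101 genes was 0.13, against 0.28 for all tested genes. Hbs1l, which with Pelota frees stalled ribosomes, was at 85.5, 63.2 and 89.8 TPM in the CD4SP libraries and at 36.1, 36.9 and 33.1 TPM in the CD8SP libraries. The populations were far apart (log2 fold change 1.13, SE 0.16, adjusted p = 0.00267), and the gene passed by adjusted p under every alternative, with 0.83 on the median-of-ratios scale. Ddit4 (REDD1), a stress-induced inhibitor of mTORC1, was at 9.94, 11.9 and 15.3 TPM in the CD4SP libraries and at 5.05, 2.27 and 3.46 TPM in the CD8SP libraries (1.57, SE 0.28, adjusted p = 0.00678 by limma). It too passed under every alternative. Pdpk1 (PDK1), the kinase that activates AKT and S6 kinases, was at 17.3, 14.6 and 17.1 TPM in the CD4SP libraries and at 10.2, 2.60 and 3.36 TPM in the CD8SP libraries. CD8SP replicate 1 stood between the others, and the difference (1.62, SE 0.40, adjusted p = 0.0235 by limma) did not pass on the median-of-ratios scale (adjusted p = 0.0560), with quantile normalization (0.0653) nor, with adjusted p from 0.0667 to 0.0857, without CD4SP replicate 1 or 3 or CD8SP replicate 2 or 3. Atf3, a transcription factor of the stress response, was low, at 2.36, 2.52 and 3.18 TPM in CD4SP and listed at 0.491, 0 and 0.813 TPM in CD8SP libraries. It reached 1 TPM in no CD8SP library, so the filter let it in only as a gene higher in CD4SP, and its adjusted p of 0.0167 by limma is given as a description. It did not pass without CD4SP replicate 3, CD8SP replicate 1 or CD8SP replicate 2 (adjusted p 0.0566 to 0.0728, limma), nor with a pseudocount of 0.1, with quantile normalization or with CD8SP replicates 1 and 2 averaged (0.0525 to 0.0623).

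By adjusted p alone 9 of the 101 genes were higher in CD4SP, against 17.6% of all tested genes, and 1 was higher in CD8SP, against 3.23%. On the median-of-ratios scale 3 were higher in CD4SP (Hbs1l, Ddit4 and, with the same limit of the filter, Atf3) and 8 higher in CD8SP (limma), against 8.45% and 7.45% of all tested genes, and the median log2 fold change of the 101 was -0.14. Besides the 4 named above, those higher in CD4SP on the deposited scale were Mknk1 and Mknk2, kinases of eIF4E, with log2 fold changes of 0.66 and 0.58, Ppp1r15a (GADD34), which directs a phosphatase to eIF2 alpha, with 0.67, Larp4b with 0.69 and Lamtor3, a scaffold of mTORC1 at the lysosome, with 0.59. None of these 5 passed on the median-of-ratios scale, where their log2 fold changes were 0.37 (Mknk1), 0.27 (Mknk2), 0.37 (Ppp1r15a), 0.41 (Larp4b) and 0.29 (Lamtor3), with adjusted p from 0.117 to 0.239 (limma). Npm1, a nucleolar chaperone and TOP mRNA, was the only 1 higher in CD8SP on the deposited scale (-0.57, adjusted p = 0.0485 by limma, and -0.88, adjusted p = 0.00600, on the median-of-ratios scale). Of the 22 genes for cytoplasmic aminoacyl-tRNA synthetases and their partners 0 passed on the deposited scale (limma, also 0 at an unadjusted p under 0.05). The shares of all tested genes were 20.8% and 37.1%. On the median-of-ratios scale 5 of the 22 passed as higher in CD8SP (limma), against 7.45% of all tested genes. The 7 tested enzymes of eIF5A and eEF2 modification and the 10 mitochondrial translation factors had 0 passing on the deposited scale (limma, 1 and 0 at an unadjusted p under 0.05). Against this stood the same 20.8% (37.1% unadjusted) of all tested genes. Their median log2 fold changes were 0.07 and 0.24.

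Counting could blur some members. A near-identical copy was found for 16 of the 61, among them Eef1a1 with 9, Eif1 with 13, Eif4a1 and Eif4a3 with 3 each, and Eef2 and Eif5a with 1 each. A further gene overlapped the exons of 26 members, and without a statement on strand the reads of overlapping genes cannot be told apart. The median log2 fold change of the members without a near-identical copy was 0.20 on the deposited scale. It was 0.10 for all members and 0.28 for all tested genes, and the part of copies in these values was not tested.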

How the data were processed

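RNA sequencing of 6 libraries (3 CD4SP and 3 CD8SP iT cell aliquots) was analysed, grouped by sample title. The authors amplified cDNA, aligned reads with HISAT2 to mm10 and deposited StringTie TPM, 1 column per library. Strand use and the treatment of reads from similar genes are not given in the sources used here. TPM carry no depth, so no counting interval was computed and no count model was used.

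Rows with at least 1 TPM in at least 3 libraries were fitted as log2(TPM + 1), which understates changes of low genes, with limma 3.58.1 in R 4.3.3 (lmFit, eBayes with trend, population as the only term) and Benjamini-Hochberg adjustment over all 10476 rows. Calls used an adjusted p under 0.05, with or without a 2-fold difference. Sums and paralogue ratios were tested by exact two-sided permutation over 20 splits. The fit was tested on simulated data, and no outcome of that test is given or used here. Copies were searched with blastn 2.17.0. Start windows came from RefSeq (GRCm38.p6), with an entry for 46 of 61 members.

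Named genes were the members passing either call, the most abundant member of each role, both genes of each paralogue pair and partner genes passing with over 2-fold; others, such as Eif2b3, Eif4e3, Eif2ak3, Eif2ak4, Eif2d, Eif3a, Eif3b and Gspt1, were chosen after their values were seen. The members and lists were chosen with earlier results of these data known. Alternatives tried were median-of-ratios and quantile scaling, a pseudocount of 0.1, a stricter filter of 5 TPM or none, removal of ribosomal protein genes, a replicate block, no trend, leaving out each library, and averaging CD8SP replicates 1 and 2; a few were added after seeing the data.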

Additional observations from a re-analysis of the deposited data

How the results depend on the processing

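Scaling decided most counts, and the cause was not tested. Members passing with over 2-fold numbered 0 on the deposited scale, 1 under median-of-ratios and under quantile scaling (against 7.52% and 7.42% of all tested genes), and 0 to 1 without single libraries (against 7.8% to 11.5%). By adjusted p alone 2 members became 17 (median-of-ratios), 8 (quantile), 6 (ribosomal protein genes removed), 0 (CD8SP replicates 1 and 2 averaged, against 10.6% of all tested genes) and 0 to 14 without single libraries, the highest without CD4SP replicate 2, against 10.2% to 32.9% of all tested genes. Members without overlap numbered 19 and became 33 under median-of-ratios scaling (54.1%, against 36.7% of all tested genes) and 20 to 40 without single libraries (32.8% to 65.6%, against 47% to 63.8%), where fewer libraries separate more easily. Of the 33, 30 were higher in CD8SP and 3 higher in CD4SP, against 17.7% and 19% of all tested genes. Partner genes passing with over 2-fold numbered 4 (against 9.73% of all tested genes), then 2 (median-of-ratios, against 7.52%), 1 (quantile, against 7.42%) and 2 to 5 without single libraries (against 7.8% to 11.5%). The median log2 fold change of the members, 0.10, was -0.20 (median-of-ratios), -0.14 (quantile) and -0.059 (ribosomal protein genes removed). Without single libraries it ran from 0.023 (CD4SP replicate 3 left out) to 0.22 (CD4SP replicate 2 left out). The medians of all tested genes in these 2 fits were 0.25 and 0.37. Directions that turned under median-of-ratios scaling were Eif1 (-0.095), Eif1a (-0.20), Eif1b (-0.11), Eif2ak1 (-0.19), Eif2b2 (-0.18), Eif2c1 (-0.070), Eif4e (-0.049), Eif4g2 (-0.096), Eif4g3 (-0.15), Eif4h (-0.11), Eif6 (-0.23), Etf1 (-0.099), Gspt1 (-0.039), Eif1ad (-0.24), Eif2a (-0.30), Eif2b1 (-0.077), Eif4b (-0.19) and Eif5 (-0.064). Under quantile scaling 19 turned, namely Eif1ad (-0.19), Eif2a (-0.28), Eif2b1 (-0.065), Eif2c2 (-0.075), Eif4b (-0.10), Eif5 (-0.0029), Eif5b (-0.031), Gspt1 (-0.056), Eif1a (-0.19), Eif1b (-0.042), Eif2ak1 (-0.22), Eif2b2 (-0.11), Eif2c1 (-0.14), Eif3f (0.035), Eif4e (-0.031), Eif4g2 (-0.087), Eif4g3 (-0.18), Eif6 (-0.14) and Etf1 (-0.049). With ribosomal protein genes removed 8 turned, namely Eif1ad (-0.096), Eif2a (-0.15), Eif4b (-0.048), Eif1a (-0.059), Eif2ak1 (-0.053), Eif2b2 (-0.034), Eif4g3 (-0.013) and Eif6 (-0.087). Without single libraries Eif2ak1 ran from -0.10 to 0.30, Eif3f from -0.15 to 0.0054, Eif4a1 from -0.47 to 0.28, Eif4a3 from -0.17 to 0.056, Eif6 from -0.058 to 0.19, the log2 ratio difference of Eif4ebp1 to Eif4ebp2 from -0.43 to 0.85 and that of Eif1 to Eif1b from -0.070 to 0.13. The summed TPM of the members, with a difference (CD4SP minus CD8SP) of -3711, kept its direction under every alternative run. Its size depends on CD4SP replicate 2, at 19523.6 TPM, against 25970 and 24158.5 in CD4SP replicates 1 and 3 and 25066 to 28212 in CD8SP libraries. No pairing by replicate number was detectable in the values, where deviations of same-numbered libraries correlated at 0.0515, -0.0168 and 0.0887, and the sources used here do not say whether they share a mouse. With the replicate block 3 members passed by adjusted p alone (Eef1g, Eef1b2 and Eif4ebp1, limma adjusted p = 0.0292 for Eif4ebp1, which did not pass without the block), against 15% of all tested genes, and 0 with over 2-fold. The count was 11 with the block on the median-of-ratios scale, against 12.2%, an alternative added after seeing the data. Unknown depth and 3 libraries per population limit what low members such as the kinases of eIF2 alpha can show.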
